A study of Mus musculus with 2 samples.

Results

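Mitotic entry, spindle and checkpoint genes encode the proteins that carry a cell from the end of G2 phase through the separation of its chromosomes. The transcripts described here were taken from a fixed list of 52 gene symbols, in which the polo-like kinases and most kinesins were left out. Matching the symbols to the gene identifiers of the count tables found 51 of the 52 genes among 55414 identifiers. The name without a match was Top2bp1, which is not a symbol in the gene name table used. All 51 genes found were measured, meaning a mean of at least 1 CPM (counts per 1000000 reads) over both libraries, as were 14871 genes in all.

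The data are RNA-seq read counts from R1E cells, a mouse embryonic stem cell line, labelled WT (wild type) and grown in serum medium with leukemia inhibitory factor, which keeps such cells dividing and pluripotent. The untreated library came from cells labelled with no treatment and 0 h, and the Adriamycin library from cells kept for 8 h in growth medium with 0.5 µM of the drug. Adriamycin, or doxorubicin, traps topoisomerase II on DNA and so breaks it. Each condition has 1 library, so nothing below is a test of the drug, and culture, time in culture and library preparation cannot be told apart from it.

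Entry into mitosis is driven by Cdk1 bound to cyclins A and B, and the Aurora kinases then build the spindle and correct the attachment of chromosomes to it. Until every chromosome is attached, the spindle checkpoint holds back the anaphase-promoting complex, a ubiquitin ligase. That ligase destroys cyclin B and securin once the checkpoint is silent, and the cell divides by cytokinesis. Transcripts of many of these genes peak in G2 and M phase. The DREAM complex, which represses them in resting or arrested cells, and the activators B-MYB and FOXM1 act through a promoter element called CHR, often accompanied by CCAAT boxes that bind the factor NF-Y.

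The CHR and CCAAT elements are shown first. Promoter sequence was not used to choose the genes, but these elements are tied to genes of this kind. High shares of matches are therefore no independent finding. RefSeq promoter windows (GRCm38.p6, 250 bases before to 50 after the annotated start) were found for 42 of the 51 genes. Both strands were searched for the CHR letters TTTGAA or TTCGAA and for CCAAT. Stretches of 170 bases, from 140 before the start to 30 after it, are printed for 10 genes that span the range of responses, from the lowest log2 ratio to the highest found with a window. Capitals mark the matches, with CCAAT reading ATTGG where it lies on the other strand.
G2e3: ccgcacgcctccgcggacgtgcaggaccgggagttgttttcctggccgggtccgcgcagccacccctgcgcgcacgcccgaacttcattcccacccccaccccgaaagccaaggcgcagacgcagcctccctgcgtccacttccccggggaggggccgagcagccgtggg
Racgap1: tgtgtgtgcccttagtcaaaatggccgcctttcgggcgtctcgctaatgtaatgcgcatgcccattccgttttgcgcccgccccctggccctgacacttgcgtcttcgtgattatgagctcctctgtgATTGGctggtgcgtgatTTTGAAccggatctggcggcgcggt
Ect2: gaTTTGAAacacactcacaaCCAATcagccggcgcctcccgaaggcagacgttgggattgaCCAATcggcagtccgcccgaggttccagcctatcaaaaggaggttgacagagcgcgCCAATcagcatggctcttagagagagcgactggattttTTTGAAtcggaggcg
Cenpf: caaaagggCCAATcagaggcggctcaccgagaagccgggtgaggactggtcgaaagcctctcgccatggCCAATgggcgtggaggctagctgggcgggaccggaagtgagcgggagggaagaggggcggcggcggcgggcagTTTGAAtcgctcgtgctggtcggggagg
Prc1: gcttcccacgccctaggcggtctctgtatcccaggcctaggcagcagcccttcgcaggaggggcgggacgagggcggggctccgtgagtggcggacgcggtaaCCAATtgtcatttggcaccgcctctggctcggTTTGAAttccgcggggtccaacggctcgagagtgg
Cdk1: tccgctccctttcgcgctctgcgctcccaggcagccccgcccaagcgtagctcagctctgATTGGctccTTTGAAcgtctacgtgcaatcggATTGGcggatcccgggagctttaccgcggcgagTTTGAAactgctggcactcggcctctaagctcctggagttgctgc
Ccnb1: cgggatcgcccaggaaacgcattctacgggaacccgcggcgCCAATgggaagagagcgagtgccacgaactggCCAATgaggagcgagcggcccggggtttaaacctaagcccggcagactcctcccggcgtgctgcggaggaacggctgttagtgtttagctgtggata
Espl1: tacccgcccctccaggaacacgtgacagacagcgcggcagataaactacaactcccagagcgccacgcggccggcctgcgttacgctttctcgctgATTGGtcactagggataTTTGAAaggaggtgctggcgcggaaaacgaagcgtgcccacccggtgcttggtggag
Cdc20: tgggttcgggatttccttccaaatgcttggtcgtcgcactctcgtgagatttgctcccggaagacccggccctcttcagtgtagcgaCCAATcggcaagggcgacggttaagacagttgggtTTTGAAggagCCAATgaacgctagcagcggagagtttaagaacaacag
Spc25: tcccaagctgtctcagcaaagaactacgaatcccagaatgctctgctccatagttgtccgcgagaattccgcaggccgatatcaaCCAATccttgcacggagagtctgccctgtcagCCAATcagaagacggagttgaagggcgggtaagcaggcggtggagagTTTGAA
The G2e3 stretch lies at chr12:51348090-51348259 (plus strand), Racgap1 at chr15:99651627-99651796 (minus strand), Ect2 at chr3:27153825-27153994 (minus strand) and Cenpf at chr1:189688057-189688226 (minus strand). Prc1 lies at chr7:80294311-80294480 (plus strand), Cdk1 at chr10:69352883-69353052 (minus strand) and Ccnb1 at chr13:100786457-100786626 (minus strand). Espl1 lies at chr15:102296153-102296322 (plus strand), Cdc20 at chr4:118437314-118437483 (minus strand) and Spc25 at chr2:69206184-69206353 (minus strand). The CHR letters occur in 8 of these stretches, and those of G2e3 and Ccnb1 hold none. The genes were picked by hand, and for a gene with several windows the one with most matches is printed. Other genes at least 2-fold lower with Adriamycin are not printed. Of these, Fzr1, Nusap1 and Sgo2a hold no CHR match in their windows, while Aurka and Anln do.

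Of the 42 genes with a window, 29 (69.0%) held a CHR match, 31 (73.8%) held CCAAT and 26 (61.9%) held both. Among the 27025 genes of the promoter table the shares were 21.7%, 41.1% and 8.61%. Among 10884 measured genes with a window they were 16.2%, 43.0% and 6.77%. The CHR matches sat close to the start, with 29 of 37 distinct matches beginning within 50 bases of a start. On the strand of the gene 29 of 37 were counted. These include the TTCGAA matches of Bub1, Bub1b and Sgo1, which read the same on both strands and so have no orientation. Matches in overlapping windows of a gene were counted once. At least 2 CCAAT matches lay in a window of 21 genes, and 1 pair of CHR and CCAAT matches shared a base. No match of either kind was in the windows of 8 genes, G2e3, Mad2l1, Mybl2, Ncaph, Nuf2, Nusap1, Pttg1 and Tacc3. A match is a string of letters and not a shown binding site. The absence of a match says nothing about the factors.

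**Figure D1:**
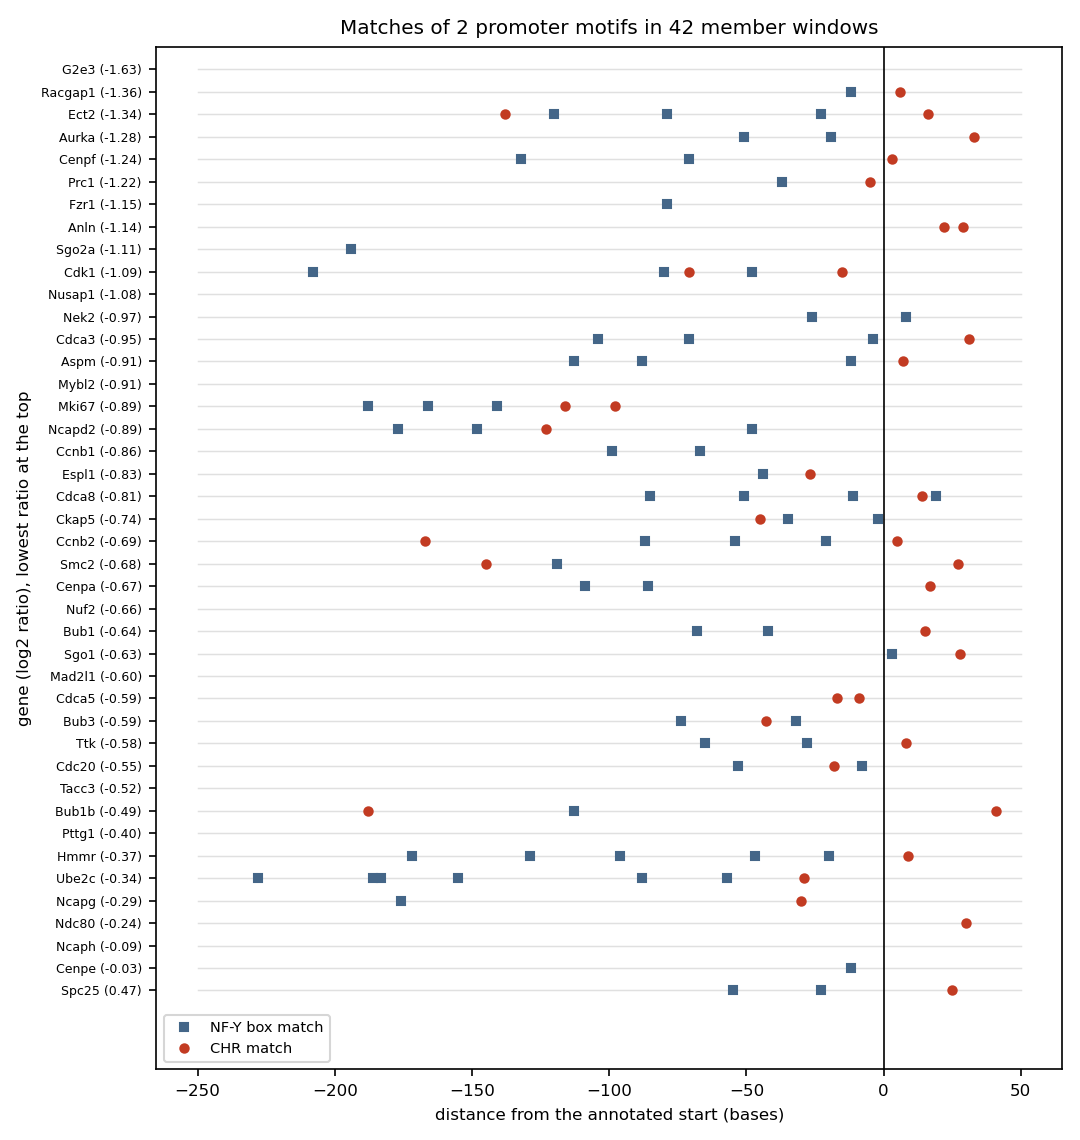
Positions of CHR matches (circles) and CCAAT matches (squares, marked as NF-Y box) in the promoter windows of 42 mitotic genes, against the distance in bases from the annotated start, with genes ordered by log2 ratio. For a gene with several windows the window with the lowest coordinate is drawn. CHR matches lie near the start both in Racgap1, near the lowest ratio, and in Spc25, at the highest.

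The transcripts of these genes were lower in the Adriamycin library almost throughout. Together they took 11254 CPM of the untreated library and 6806 CPM of the Adriamycin library (447616 and 275980 reads). Log2 ratios of Adriamycin over untreated ran from -1.63 for G2e3 to 0.47 for Spc25, with a median of -0.69 against -0.03 for all measured genes. In bulk RNA, fewer cells in G2 or M phase and less of the RNA per such cell cannot be told apart.

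By the rule of size used in place of a test, 11 of the 51 genes (21.6%) were at least 2-fold lower and 0 were at least 2-fold higher. Of all measured genes 6.95% were 2-fold lower and 17.0% 2-fold higher. At a looser 1.5-fold, 34 of the 51 (66.7%) were lower and 0 higher, against 18.9% lower and 25.7% higher of all measured genes. Among the 5512 genes at least as abundant on average as the least abundant of the 51, 6.84% were 2-fold lower, 7.89% 2-fold higher, 23.2% 1.5-fold lower and 13.7% 1.5-fold higher. The log2 ratio was below 0 for 49 of the 51 genes, against 51.6% of all measured genes and 65.7% of the abundant ones. With library totals as the only scaling it was below 0 for 46, because Aurkb, Cenpe and Ncaph then lay just above 0. The number 2-fold lower was 7 with library totals, where 4.85% of all measured genes were 2-fold lower, and 19 with upper-quartile factors, where 9.39% were. The 4 genes that lost the 2-fold call with library totals were Cdk1, Nusap1, Sgo2a and Anln. The median of the 51 lay 0.66 log2 units below that of all measured genes, a gap that scaling cannot change. It was 0.56 below that of genes averaging 10 CPM or more and 0.78 below that of all genes without a filter.

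**Figure D2:**
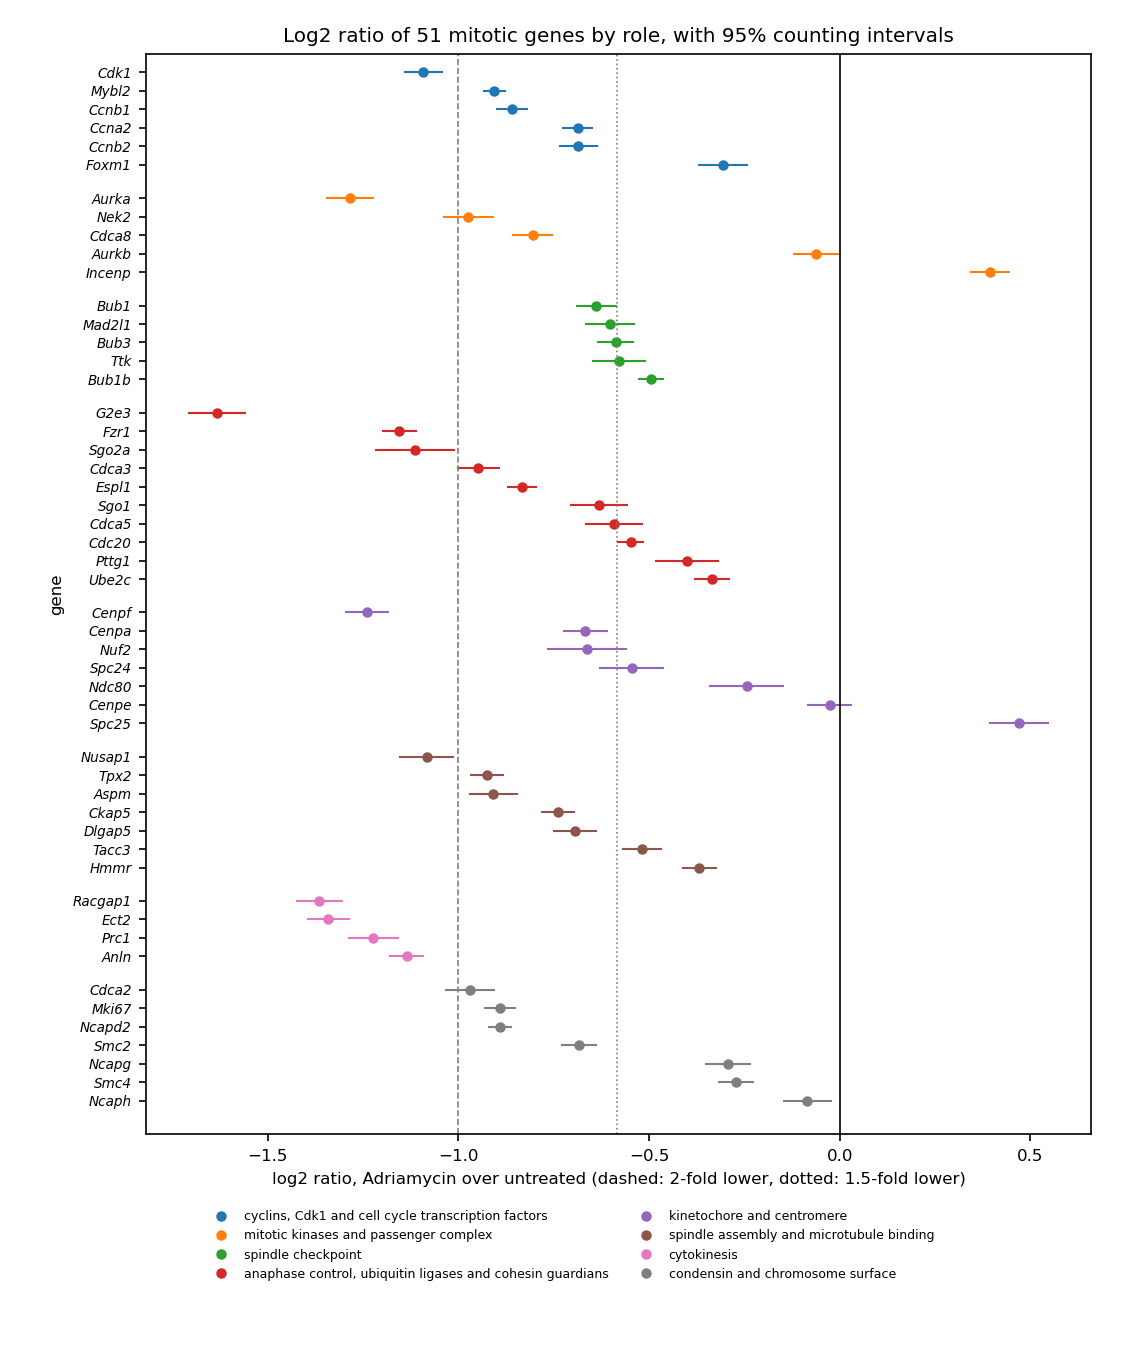
Log2 ratio of Adriamycin over untreated for the 51 genes (horizontal axis), grouped by role, with 1 point per gene and lines for the 95% counting interval. The cytokinesis genes all lie beyond the dashed line of 2-fold lower, the checkpoint genes lie between -0.64 and -0.49, and only Incenp and Spc25 lie clearly to the right of 0.

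Cyclins, Cdk1 and the transcription factors of the G2 and M programme were all lower, by unequal amounts. Cdk1, the kinase that drives entry into mitosis, had 10659 reads untreated and 5096 with the drug, giving a log2 ratio of -1.09 with a 95% counting interval of -1.14 to -1.04. Counting intervals take in the error of counting reads and nothing else. Cdk1 was thus 2.13-fold lower, and its partners were lower by less. Cyclin B1 (Ccnb1) had 14014 and 7873 reads (log2 ratio -0.86), cyclin B2 (Ccnb2) 8943 and 5668 (-0.69) and cyclin A2 (Ccna2) 14209 and 8994 (-0.69). Exons of Ccna2 share 12.5% of their bases with Exosc9 on the opposite strand, and the counting had no strand option.

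The activators Mybl2 (B-MYB) and Foxm1 differed from each other. Mybl2 had 30279 and 16470 reads, giving a log2 ratio of -0.91, and Foxm1 had 4427 and 3651, a log2 ratio of -0.31 (-0.37 to -0.24). Per kilobase of exon Mybl2 stood at 164 CPM untreated, rank 2 in level among the 51 genes, and Foxm1 at 19.3 CPM. The level of Mybl2 was 8.50 times that of Foxm1 in the untreated and 5.60 times in the Adriamycin library. In this group 1 of 6 genes, Cdk1, was 2-fold lower and 5 were 1.5-fold lower. These shares were 16.7% and 83.3%, against 6.95% and 18.9% of all measured genes. With library totals the log2 ratio of Cdk1 was -0.95, so that 0 of 6 reached 2-fold.

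The kinase genes Aurka and Aurkb, which encode closely related Aurora kinases, stood apart. Aurka, whose product works at centrosomes and spindle poles (chromosome 2, 172198110 to 172212455, GRCm39), had 7499 and 3140 reads. Its log2 ratio was -1.28 (-1.34 to -1.22), 2.43-fold lower. Aurkb, the kinase of the chromosomal passenger complex, had 4881 and 4768 reads, giving a log2 ratio of -0.06 (-0.12 to -0.004), and lay above 0 with library totals. The difference of -1.22 between their log2 ratios (counting interval -1.31 to -1.14) does not depend on the scaling. Per kilobase of exon, the level of Aurka was 1.79 times that of Aurkb without the drug and 0.767 times with it. Tpx2, the protein that activates Aurora A on the spindle, was also lower, with 13732 reads untreated and 7374 with the drug (log2 ratio -0.92). Nek2, a kinase that separates centrosomes, had 5682 and 2948 reads, giving a log2 ratio of -0.97, just short of 2-fold.

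The chromosomal passenger complex consists of Aurora B, the scaffold INCENP, borealin (Cdca8) and survivin (Birc5, not among the 51), and its transcripts did not move together. Incenp was higher, with 5587 reads untreated and 7481 with the drug (log2 ratio 0.39, 0.34 to 0.44). Cdca8 was lower, with 8530 reads untreated and 4977 with the drug (log2 ratio -0.81, -0.86 to -0.75). Birc5 had 6116 and 4286 reads, giving a log2 ratio of -0.54. Incenp went from 32.4 to 42.6 CPM per kilobase, from the lowest of the complex to the highest, while Cdca8 went from 41.4 to 23.7. The difference between Incenp and Cdca8 was 1.20 log2 units (1.13 to 1.27). Incenp lies on chromosome 19 (9849660 to 9876915, GRCm39), where the 43 other measured genes within 1 Mb had a median log2 ratio of 0.58. The median of all measured genes on that chromosome was 0.29. The part of this neighbourhood in the value of Incenp was not tested. Cdca5 on the same chromosome (6135013 to 6141807) had a log2 ratio of -0.59 and neighbours with a median of 0.08. Higher neighbour medians than that of Incenp belonged to Mybl2 (0.93), Nuf2 (0.77), Ect2 (1.29, 3 neighbours) and Mki67 (4.62, 3 neighbours). The log2 ratios of these genes were -0.91, -0.66, -1.34 and -0.89.

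Among the 5 spindle checkpoint genes of the list 0 were 2-fold lower, against 6.95% of all measured genes. All 5 were lower, with log2 ratios between -0.64 and -0.49, the least spread of the role groups. Checkpoint genes outside the list did not all share this direction. Mad1l1, the kinetochore anchor of MAD2, had 2558 and 4006 reads (0.62), and Mad2l1bp, which helps to silence the checkpoint, had 589 and 837 (0.48). Both were chosen after their values were seen. Of the 21 other checkpoint and passenger genes compared, 16 (76.2%) had a log2 ratio below 0 and 5 above 0. Of all measured genes, 51.6% lay below 0. Bub1, a kinetochore kinase that recruits other checkpoint proteins, had 7635 and 5001 reads (-0.64). Mad2l1, the inhibitor that holds Cdc20, had 4942 and 3319 (-0.60), and Bub3, which tethers BUB1 and BUBR1 to kinetochores, had 9470 and 6423 (-0.59). Ttk, the kinase MPS1 at the top of the checkpoint, had 4246 and 2897 reads (-0.58). Bub1b, which encodes BUBR1, had 19002 and 13750 (-0.49, -0.53 to -0.46). The standard deviation of the 5 log2 ratios was 0.05, against 0.42 for the 51 genes. BUBR1, BUB3, MAD2 and CDC20 make up the mitotic checkpoint complex. Their 4 transcripts lay within 0.11 log2 units of each other, and Cdc20 made up 59.3% of their summed level per kilobase without the drug and 58.9% with it. Such shares depend on the annotated exon lengths, 1868 bases for Cdc20 and 8390 for Mad2l1.

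Genes of anaphase control were all lower, with log2 ratios from -1.63 to -0.34. Of the 10, 3 (30%) were at least 2-fold lower (2 with library totals) and 7 (70%) at least 1.5-fold lower. The shares of all measured genes were 6.95% and 18.9%. Cdc20 and Fzr1 encode the coactivators of the anaphase-promoting complex, CDC20 in early mitosis and CDH1 from late mitosis into G1. Cdc20 (chromosome 4, 118290098 to 118294549, GRCm39) had the highest level per kilobase of the 51 genes in both libraries, 234 and 160 CPM. It had 17378 and 12113 reads, giving a log2 ratio of -0.55 (-0.58 to -0.52). Fzr1 was lower by more, with 13573 reads untreated and 6215 with the drug (log2 ratio -1.15, -1.20 to -1.11), so that the level of Cdc20 was 3.08 times that of Fzr1 untreated and 4.68 times with the drug. Ube2c, the ubiquitin-conjugating enzyme of the complex, was among the least lowered, with 9082 reads untreated and 7340 with the drug (log2 ratio -0.34).

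G2e3, a ubiquitin ligase gene named for its expression in G2 and M phase (chromosome 12, 51394844 to 51423769, GRCm39), was the lowest of the 51. It had 6207 and 2040 reads, giving a log2 ratio of -1.63 (-1.71 to -1.56) and was 3.10-fold lower. Of all measured genes, 1.51% had a lower log2 ratio. Its promoter stretch above holds neither element. Securin (Pttg1), the inhibitor of separase, had 2831 and 2187 reads (-0.40), while separase itself (Espl1) had 16739 and 9580 (-0.83). Cdca3, linked to the degradation of the mitosis inhibitor WEE1, had 7850 and 4149 reads (-0.95).

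The guardians of sister chromatid cohesion were lower to differing degrees. Sgo1, a shugoshin that protects cohesin at centromeres in mitosis, had 3826 and 2519 reads (-0.63). Its relative Sgo2a had 2399 and 1130 reads, giving a log2 ratio of -1.11 (-1.22 to -1.01), and was 0.48 log2 units below Sgo1. With library totals its log2 ratio was -0.97, short of 2-fold. Exons of Sgo2a share 35.0% of their bases with the opposite-strand gene Kctd18 (646 and 650 reads). Sororin (Cdca5), which locks cohesin on replicated DNA, had 3727 and 2519 reads.

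Kinetochore and centromere genes were mixed, with 1 of 7 genes (14.3%) 2-fold lower and 1 higher by less than 1.5-fold. The 2-fold lower share of all measured genes was 6.95%. Cenpf, a large protein of the outer kinetochore, had 8678 and 3747 reads, giving a log2 ratio of -1.24 (-1.30 to -1.18). Cenpe, a kinesin motor that brings chromosomes to the spindle equator, had 5164 and 5169 reads, giving a log2 ratio of -0.03 (-0.08 to 0.03), above 0 with library totals. Cenpa, the histone H3 variant that marks centromeres, had 6493 and 4167 reads (-0.67). The difference between Cenpf and Cenpe was -1.21 log2 units (-1.29 to -1.13).

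The NDC80 complex, the link between kinetochore and microtubule, has 4 subunits, and their transcripts differed in direction. Spc25 (chromosome 2, 69024239 to 69036538, GRCm39) was the highest of the 51 genes in log2 ratio, with 2387 and 3372 reads and a value of 0.47 (0.39 to 0.55), 1.39-fold higher. The other three were lower, Ndc80 with 1925 and 1657 reads (-0.24), Spc24 with 2869 and 2003 (-0.55) and Nuf2 with 2026 and 1305 (-0.66). SPC24 and SPC25 pair with each other at the inner end of the complex, and their log2 ratios differed by 1.02 (0.90 to 1.13). Per kilobase, Spc25 stood at 0.671 times the level of Spc24 without the drug and at 1.36 times with it. Spc25 overlaps no exon of another gene, and the 14 other measured genes within 1 Mb had a median of -0.28. Its promoter holds a CHR match and 2 CCAAT matches in the stretch above, as do those of genes that were lower.

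**Figure D3:**
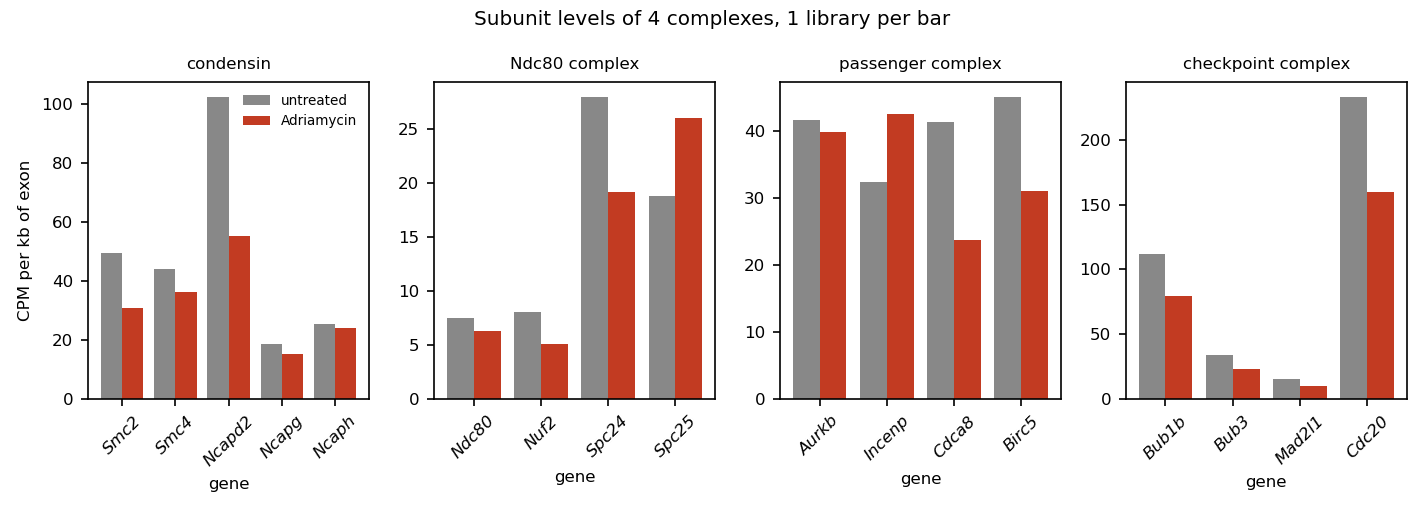
Level per gene in CPM per kilobase of exon for the subunits of condensin, the NDC80 complex, the passenger complex and the mitotic checkpoint complex, with 1 bar per library (grey untreated, red Adriamycin) and no error bars because there are no replicates. The checkpoint subunits shrink by similar factors, while Spc25 and Incenp are taller with Adriamycin and their partners are shorter or little changed.

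Genes for spindle assembly and microtubule binding were all lower, with 1 of 7, Nusap1, reaching 2-fold and 5 of 7 reaching 1.5-fold. These shares were 14.3% and 71.4%, against 6.95% and 18.9% of all measured genes. With library totals Nusap1 had a log2 ratio of -0.94, and 0 of 7 reached 2-fold. Nusap1, a microtubule bundling protein, had 5299 and 2549 reads (-1.08), and its exons share 4.24% of their bases with Oip5 on the opposite strand. Aspm, which organises spindle poles, had 5987 and 3251 reads (-0.91). Ckap5, a microtubule polymerase, and Tacc3, which brings it to the spindle, had log2 ratios of -0.74 and -0.52 (12473 and 7622 reads, and 7536 and 5363). The spindle proteins Dlgap5, with 6961 and 4383 reads, and Hmmr, with 9761 and 7705, had log2 ratios of -0.70 and -0.37.

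Cytokinesis genes were the only role group in which every member, 4 of 4, was at least 2-fold lower, against 6.95% of all measured genes. The role groups were drawn up with earlier results of these data known. All 4 genes stayed 2-fold lower with median-of-ratios and upper-quartile scaling. With library totals Anln had a log2 ratio of -0.99, leaving 3 of 4. Racgap1, the centralspindlin subunit that turns RhoA signalling on and off at the cell equator, had 8151 and 3227 reads, giving a log2 ratio of -1.36 (-1.42 to -1.31). Ect2, the exchange factor that RACGAP1 recruits to activate RhoA, had 9989 and 4020 reads (-1.34, -1.39 to -1.29). Prc1, which bundles the microtubules of the midzone, had 6302 and 2752 reads (-1.22), and anillin (Anln), the scaffold of the contractile ring, had 13112 and 6083 (-1.14). The standard deviation of these log2 ratios was 0.11. Cytokinesis genes outside the list differed in direction. Kif23, the kinesin partner of RACGAP1 in centralspindlin, had 11923 and 4450 reads (-1.45), while Cep55, which acts in the final cut between daughter cells, had 2193 and 3181 (0.51). The midbody kinase Cit had 4308 and 5232 reads (0.25), and the kinesins Kif20b and Kif14 had log2 ratios of -0.22 and -0.34. The kinesins Kif20a and Kif4, also outside the list, had log2 ratios of -0.87 and -0.85. Cep55, Cit, Kif20b, Kif14, Kif20a and Kif4 were chosen after their values were seen. Of the 37 other spindle and cytokinesis genes compared, 24 (64.9%) had a log2 ratio below 0 and 13 above 0. Of all measured genes, 51.6% lay below 0. The windows of Racgap1, Ect2, Prc1 and Anln hold CHR matches and those of the first 3 hold CCAAT. Exons of Prc1 share 11.1% of their bases with the opposite-strand gene Rccd1 (1119 and 1093 reads).

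Condensin, the ring complex that compacts chromosomes, showed a graded picture. Its subunit Ncapd2 had 25571 and 14056 reads (log2 ratio -0.89, -0.92 to -0.86) and the ATPase Smc2 had 10771 and 6833 (-0.68). The partner ATPase Smc4 had 9101 and 7681 reads (-0.27), Ncapg 5181 and 4310 (-0.29) and the kleisin Ncaph 4365 and 4195 (-0.09, above 0 with library totals). The level of Smc2 per kilobase was thus 1.13 times that of Smc4 without the drug and 0.846 times with it. Ncapg shares 13.4% of its exon bases with Lcorl on the opposite strand. On the chromosome surface, Mki67, which encodes the proliferation marker Ki-67, had 14247 and 7829 reads (-0.89). Cdca2, which brings a phosphatase to chromosomes as mitosis ends, had 5918 and 3079 (-0.97).

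**Figure D4:**
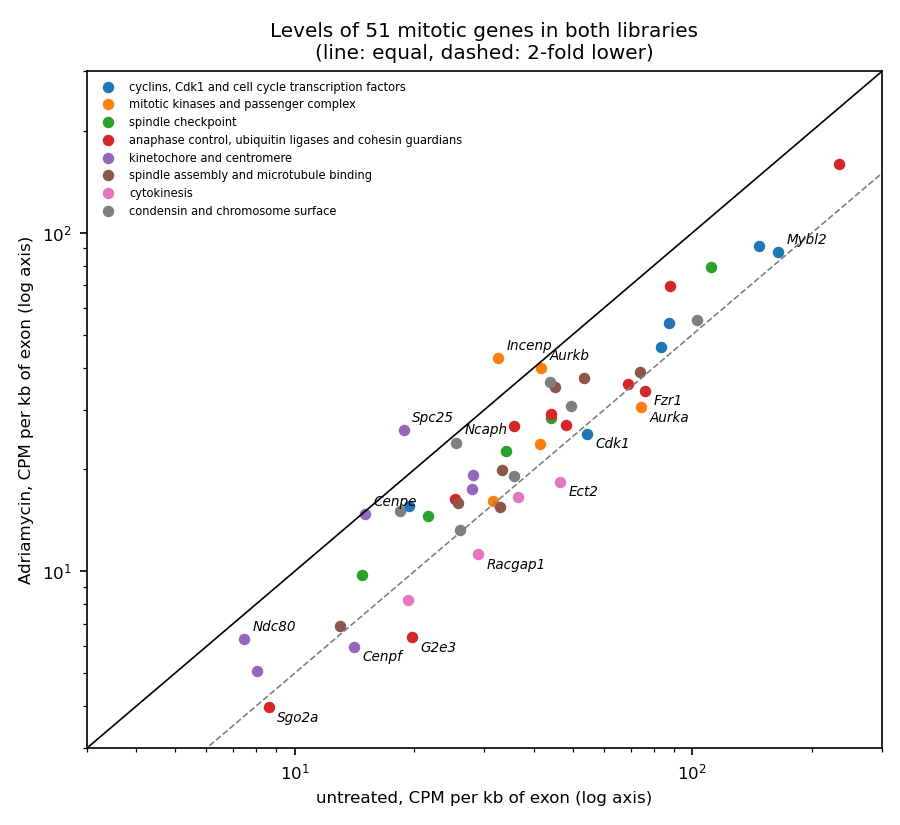
Level of each of the 51 genes in CPM per kilobase of exon in the untreated (horizontal) and the Adriamycin library (vertical), on log axes, coloured by role. Most points fall between the line of equal level and the dashed line of 2-fold lower, the genes named beneath the dashed line include G2e3, Racgap1 and Ect2, and Incenp and Spc25 lie above the line of equal level.

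The order of the genes by level was partly rearranged. Cdc20 held rank 1 per kilobase in both libraries and Bub1b rank 4. Incenp went from rank 30 to rank 9, Aurkb from 22 to 10 and Spc25 from 43 to 23. Racgap1 went from 32 to 43 and Ect2 from 17 to 31. The median level was 35.6 CPM per kilobase without the drug and 23.7 with it.

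Log2 ratios were compared between genes with and without each promoter element. The 29 genes with a CHR match had a median log2 ratio of -0.69 and the 13 without had -0.86. Of these, 7 (24.1%) and 4 (30.8%) were at least 2-fold lower. With CCAAT the median was -0.81 (31 genes, 8 of them or 25.8% 2-fold lower). Without it the median was -0.60 (11 genes, 3 of them or 27.3% 2-fold lower). Over all measured genes with a window, the medians with and without CHR were -0.05 and -0.01. Of these genes, 137 of 1762 with CHR (7.78%) and 512 of 9122 without it (5.61%) were 2-fold lower. Their medians with and without CCAAT were -0.04 and -0.01. With CCAAT 281 of 4678 (6.01%) and without it 368 of 6206 (5.93%) were 2-fold lower.

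Other genes of cell division, listed beside the 51, had medians between -0.49 and -0.21 by list. For comparison, 6.95% of all measured genes were 2-fold lower and 17.0% 2-fold higher. Of 35 other kinetochore and CENP genes 1 (2.86%) was 2-fold lower and 1 (2.86%) higher, with a median of -0.21. Cenpl had a log2 ratio of -1.03 and Cenpm, both of the constitutive centromere network, 1.07. With upper-quartile factors 4 were lower and 0 higher, and with library totals 0 and 2. Of 21 further checkpoint and passenger genes 2 (9.52%) were lower and 0 higher (median -0.30). The 2 were Cks2, a small Cdk1-binding subunit (-1.44), and the kinase Pbk (-1.09). With library totals 1 was lower.

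The shares of all measured genes were 6.95% for 2-fold lower and 17.0% for 2-fold higher. Among 16 genes of the anaphase-promoting complex, its inhibitor and its enzymes, 2 (12.5%) were lower and 0 higher (median -0.23). These were the inhibitor Fbxo5 (EMI1, -1.24) and the ubiquitin-conjugating enzyme Ube2s (-1.04), not the core subunits, and 1 of 16 was lower with library totals. Of 16 cohesin and condensin II genes 3 (18.75%) were 2-fold lower and 0 higher, the median being -0.49. The cohesin subunit Rad21 had 21923 and 10335 reads (-1.11), the cohesin release factor Wapl -1.15 and the regulator Pds5a -1.19. With library totals 2 of the 16 were lower.

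Past the same rule lay 6.95% of all measured genes on the lower side and 17.0% on the higher side. Spindle and cytokinesis genes outside the 51 went both ways: of 37, 4 (10.8%) were lower and another 4 (10.8%) higher, the median being -0.30. The lower ones with the farthest intervals were Plk1 (-1.87), the mitotic polo-like kinase, Kif23 (-1.45) and Kif18a (-1.40). The higher ones were Kif18b (5075 and 13611 reads, log2 ratio 1.40), Ckap2 (4825 and 12772, 1.38) and Fam83d (2989 and 7668, 1.33), and the remaining gene, Psrc1, had 1.23. The promoter windows of these 4 held both CHR and CCAAT matches, as did those of 15 of the 32 genes of this list with a window (46.9%). Of its 4 lower genes, 3 held CHR. Genes of the DNA replication origin and fork, active in S phase, numbered 47 measured, of which 1 (2.13%) was lower and 0 higher (median -0.29). The lower gene was Dbf4, an activator of the origin kinase CDC7, at -1.30. Their windows held CHR in 9 of 38 genes (23.7%). Of 10 measured DREAM and MuvB genes 0 were lower and 1 (10%) higher, with a median of -0.24. The higher gene was Rbl2 (p130), with 365 reads untreated and 2464 with the drug (log2 ratio 2.73). Its exons overlap Aktip and Gm45464 on the opposite strand.

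**Figure D5:**
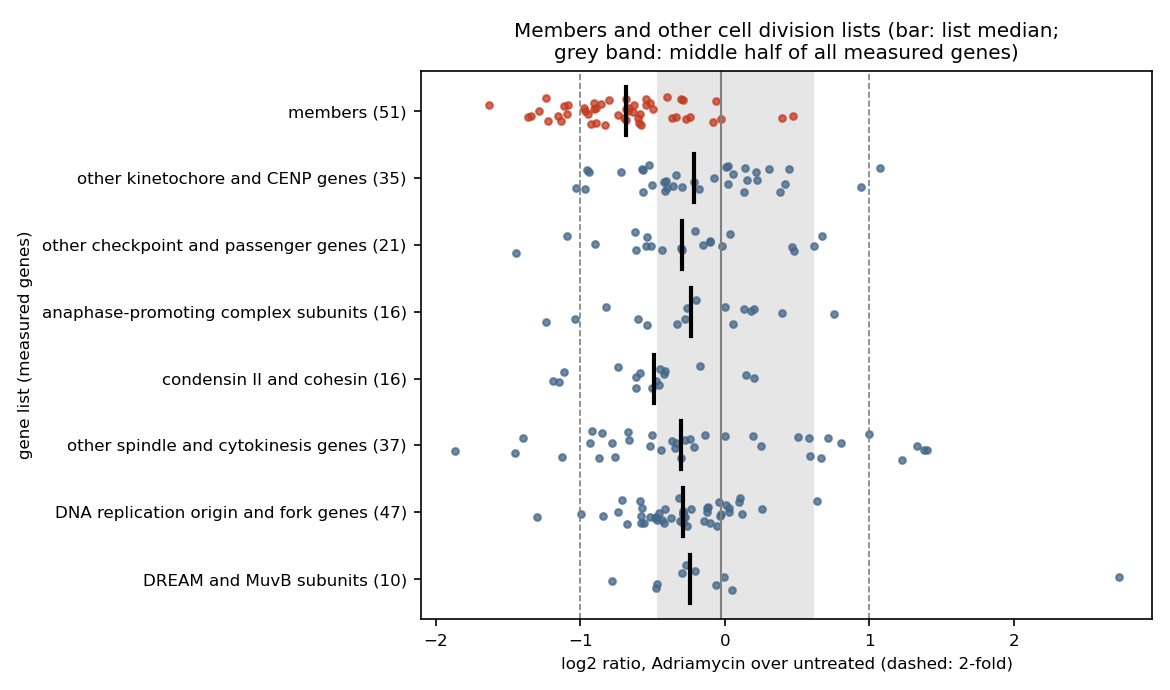
Log2 ratio per gene (points) for the 51 members and 7 other cell division lists, with the list median as a bar and the interquartile range of all measured genes as a grey band. Among the lists drawn, the 51 members have the lowest median, -0.69, and cohesin with condensin II the next, -0.49.

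As a check of the labels, the p53 targets Mdm2 (log2 ratio 2.84) and Cdkn1a (1.63) were higher with Adriamycin. All 8 pluripotency markers were expressed, with Pou5f1 at 862 and 604 CPM. Of these markers 4 (50%) were 2-fold lower, against 6.95% of all measured genes. Their median log2 ratio was -0.84, below the -0.69 of the 51 genes, and all 8 lay below 0. Of 12 fibroblast markers, listed because feeder cells could be present, 8 were measured. Among these 8, 4 (50%) were 2-fold higher, against 17.0% of all measured genes. Col3a1, Dcn, Lum and Postn had 0 reads in both libraries. The 8 measured fibroblast markers summed to 46.5 CPM untreated and 138 with Adriamycin, and their part in the mitotic values was not tested. Their median level was low, 0.647 CPM per kilobase untreated, against 5.26 for all measured genes. Of the 51 genes, 11 share exon bases with a gene on the opposite strand, and 37 overlap no exon of another gene.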

How the data were processed

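Per the file headers, the authors made the deposited read counts with featureCounts 2.0.3 on annotation release 105 of GRCm39, with paired-end input and both ends required to align, and with no strand option and no option to count reads shared between genes. HISAT2 2.0.4 (alignment software), Trim Galore 0.3.4, DESeq2 1.16.1, an older featureCounts 1.6.0 and builds other than GRCm39 appear in the submitters' processing notes. Gene coordinates here are those of the deposited tables. Totals were 41820999 reads (untreated) and 38561292 (Adriamycin). Mates may have been counted separately, which makes counting intervals too narrow. With counts divided by 2, 46 of the 51 intervals lay below 0, against 48.

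Symbols were matched by Ensembl identifier to the GENCODE gene names (52081 matched). Counts were scaled with TMM factors (edgeR 4.0.16, R 4.3.3), 0.951 and 1.05, and a pseudocount of 0.5 reads was added. Levels per kilobase divide CPM by merged exon length. Ranks, shares and multiples of level between genes therefore depend on the annotated exons, while log2 ratios do not. Intervals are exact conditional binomial (Clopper-Pearson), and for differences between genes normal on the log scale. With 1 library per group no test was possible. Python 3.11.15 computed ratios, after they were tested on simulated data. Alternatives were library totals, upper-quartile and DESeq2 1.42.0 median-of-ratios factors, pseudocount 5, no filter and 10 CPM. The members and lists were chosen with earlier results of these data known. Every member could be named, and of other lists up to 3 genes past 2-fold in each direction whose intervals lay farthest from 0. Psrc1 was named after its values were seen, as were the genes so marked in the text.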

Additional observations from a re-analysis of the deposited data

How the results depend on the processing

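The count of the 51 genes at least 2-fold lower was 11, and it became 7 with library totals, 19 with upper-quartile factors and 34 with a 1.5-fold rule. The shares of all measured genes moved too, from 6.95% to 4.85%, 9.39% and 18.9%. Their median log2 ratio of -0.69 became -0.54 and -0.81 with those 2 scalings, which moved all 51 ratios beyond their counting intervals by a common shift. The median of all measured genes was -0.03, 0.12 and -0.15 under TMM, library totals and upper-quartile factors, and higher genes were 71.0%, 80.2% and 61.6% of all genes called at 2-fold. Median-of-ratios factors, a pseudocount of 5, no filter and a filter at 10 CPM left the count at 11 and every ratio inside its interval. The filter settings could not change these values, since the least abundant of the 51 genes, Nuf2, averaged 41.6 CPM. A pseudocount of 5 is small beside the lowest count among them, 1130 reads for Sgo2a with Adriamycin. Cdk1, Nusap1, Sgo2a and Anln lost the 2-fold call with library totals. The signs of Aurkb, Cenpe and Ncaph, none of them called, turned with library totals (0.08, 0.12 and 0.06). In the shorter promoter window of 100 bases before to 50 after the start, 28 genes held CHR and 27 held CCAAT, against 29 and 31. No paired analysis was possible because each group has 1 library. Without replicates, the depth of these libraries limits counting error only.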

Other observations

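Topbp1, the DNA replication and checkpoint scaffold whose full name speaks of topoisomerase II binding, had 13606 and 13703 reads, giving a log2 ratio of -0.02 (-0.05 to 0.02). It resembles the unmatched name Top2bp1 but was not counted among the 51 genes, since no table links the names.

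Across the 51 genes, which share both libraries and are not independent replicates, the log2 ratio had a Pearson correlation of -0.29 with log2 exon length (Spearman -0.30), -0.16 with log2 mean CPM (-0.17) and -0.18 with log2 span in the genome (-0.19). These are given as a description.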
